A study of Rattus norvegicus with 108 samples.

Results

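Brain-derived neurotrophic factor (Bdnf) and the receptor genes Ntrk2 and Ntrk3 were followed through single-cell RNA profiles of the rat dentate gyrus. The members were chosen by symbol and make up 3 of the 19127 genes in the count tables. All 3 were found in both regional tables. The profiles came from the dorsal and the ventral dentate gyrus (dorDG and venDG) of male Long-Evans rats. The labels give an age of 2 months, which is about the age at which the study assigned rats to groups. The treated group (FT) received fluoxetine, a serotonin reuptake inhibitor, at 18 mg/kg body weight per day for 6 weeks, and the control group (Sham) received water. By the study's methods, both groups were killed after these 6 weeks. No genetic change or other agent is named for either group. Each replicate was a pool of tissue from 3 animals, and there were 4 replicates of dorDG FT and 5 each of dorDG Sham, venDG FT and venDG Sham. The p-values below therefore measure the spread between pools.

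BDNF is a secreted protein that neurons make in response to activity, and dentate granule cells are a well-known source of it. It signals through TrkB, the receptor tyrosine kinase encoded by Ntrk2, whereas TrkC, encoded by Ntrk3, is the main receptor of the related ligand neurotrophin-3. Ntrk2 also yields truncated receptors without a kinase domain, which are typical of astrocytes, and BDNF-TrkB signalling has long been studied in connection with antidepressant action. The profiles count unique molecular identifiers (UMIs) at the 3′ ends of transcripts and do not separate the receptor isoforms.

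Of 3347 cells, 1289 came from dorDG and 2058 from venDG, with 42 to 384 cells and 220162 to 1523537 UMIs per replicate. The authors' annotation of dorDG names 12 types, and venDG cells were clustered here and named from markers, with 535 cells left without a name. The names were checked against marker genes. The 147 cells annotated InhibNeuron had 4 of 5 granule neuron markers raised (Prox1, Calb1, Dock10 and Plk5) and 1 of 6 inhibitory markers (Gad2), with Slc32a1 at 0. The cells annotated Mossy had 5 of 5 mural and 3 of 5 endothelial markers raised against 1 of 5 mossy cell markers, and Drd2 was at 0. Those annotated Granule had 0 of 5 granule markers raised. These names are kept below as annotation labels only. In 8 replicates the cells came from a pair of reactions. The labels describe nuclei and the study's methods both cells and nuclei, and the reactions are not assigned to either.

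The depth behind the members differed widely. Bdnf had 209 UMIs in 131 cells (3.91% of all cells), of which 97 cells held a single UMI. The 10 cells with the most Bdnf held 58 of these UMIs (27.8%), and 16 lay in 1 unnamed venDG cell of FT replicate 2. Ntrk2 had 4596 UMIs in 1707 cells (51.0%) and Ntrk3 had 3207 UMIs in 1129 cells (33.7%). Values are given as UMIs per 10000 UMIs and are compared between cells for the same gene, not between genes.

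The first question was which cells of dorDG carried the ligand and its receptors. Bdnf was concentrated in the cells annotated InhibNeuron and ExcitNeuron. Together these made up 202 cells (15.7%) with 23.3% of all dorDG UMIs, and they held 81 of the 107 Bdnf UMIs (75.7%). Taking the replicates that held 5 or more ExcitNeuron cells, Bdnf averaged 0.819 ± 0.534 UMIs per 10000 (SD, n = 4) in ExcitNeuron, with values from 0.295 to 1.46. In InhibNeuron it averaged 0.599 ± 0.325 (n = 6), with a lowest value of 0.311, a median of 0.514 and a highest of 1.24. The next in order, BergGlia at 0.484 ± 0.968 (n = 4), rested on 2 UMIs in all. No pair of neighbours among the 12 types differed by more than the larger of their SDs, and the 10 types other than ExcitNeuron (30 UMIs) and InhibNeuron (51 UMIs) held 0 to 8 Bdnf UMIs each. Microglia2 had none in 103 cells, which allows a share of up to 2.91% of cells with a UMI.

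Detection of Bdnf depended on depth. A Bdnf UMI was found in 27.3% of ExcitNeuron cells (exact binomial 95% interval 16.1 to 41.0%) and 22.4% of InhibNeuron cells (16 to 30.1%), at median depths of 6372 and 5846 UMIs per cell. When each cell was thinned to 1000 UMIs and shallower cells were left out (2 of 55 ExcitNeuron, 0 of 147 InhibNeuron and 16 of 103 Microglia2 cells), the shares were 5.66% and 6.80%. Microglia2, at a median of 1925 UMIs, had no Bdnf with or without thinning. These intervals, like all intervals and limits here, cover counting error only.

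Ntrk2, the TrkB gene, was highest in the annotated astrocytes. AstroSub1 averaged 11.1 ± 3.79 UMIs per 10000 (n = 8), with a lowest replicate of 5.43, a median of 10.7 and a highest of 18.1. BergGlia, which carried 5 of 5 astrocyte markers, followed at 6.25 ± 3.02 (n = 4), ExcitNeuron at 5.44 ± 0.987 (n = 4), OPC (oligodendrocyte precursors) at 4.27 ± 1.64 (n = 7), InhibNeuron at 4.26 ± 0.976 (n = 6) and Granule at 2.95 ± 2.48 (n = 9). The remaining types ranged from 2.02 ± 1.35 in Microglia2 down to 1.16 ± 0.615 in Endothelial (n = 9 each). The step from AstroSub1 to BergGlia exceeded the larger SD, and the other 10 steps did not. An Ntrk2 UMI was found in 81.8% of AstroSub1 cells at a median depth of 2317 UMIs, and in 59.2% after thinning, which left out 12 of 110 cells. The shares in Microglia2, of similar depth, were 32.0% and 14.9%. AstroSub1 and BergGlia held 11.9% of dorDG cells, 5.86% of all UMIs and 20.7% of the Ntrk2 UMIs.

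Ntrk3, the TrkC gene, followed the neuronal annotations instead. InhibNeuron averaged 8.27 ± 1.75 UMIs per 10000 (n = 6), with a lowest replicate of 5.38, a median of 8.54 and a highest of 10.2. ExcitNeuron averaged 6.88 ± 3.13 (n = 4), Granule 3.35 ± 2.11 (n = 9), OPC 2.71 ± 1.55 (n = 7) and AstroSub1 1.86 ± 0.932 (n = 8). The other 7 types lay between 0.885 ± 0.953 (Microglia1) and 0.399 ± 0.481 (BergGlia). Only the steps from ExcitNeuron to Granule and from AstroSub1 to Microglia1 exceeded the larger SD. An Ntrk3 UMI was present in 98.0% of InhibNeuron cells (94.2 to 99.6%) and in 56.5% after thinning, against 12.6% and 6.90% in Microglia2. InhibNeuron and ExcitNeuron held 66.7% of the dorDG Ntrk3 UMIs and 36.5% of the Ntrk2 UMIs. These levels describe types that were themselves drawn from the same cells, and no test was made between types.

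**Figure D1:**
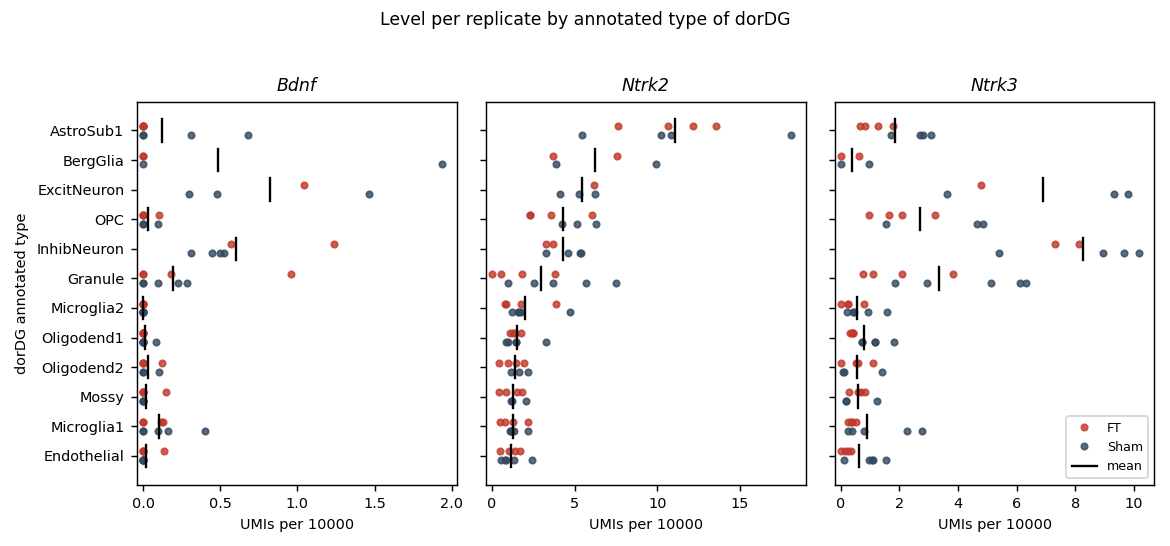
Levels of Bdnf, Ntrk2 and Ntrk3 (UMIs per 10000, horizontal axes on separate scales) in each dorDG annotated type. Each point is a replicate with at least 5 cells of the type, coloured by treatment, and the black line is the mean. AstroSub1 leads for Ntrk2 at 11.1, InhibNeuron for Ntrk3 at 8.27 and ExcitNeuron for Bdnf at 0.819.

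Likeness of pattern was measured as the Pearson correlation of log2(UMIs per 10000 + 0.1) over the 12 dorDG types among 8332 genes. The genes most like Bdnf were Trim46 (r = 0.98), Sult4a1, Syngr3, Cnih2 and Fgf13. Those most like Ntrk2 were Ogdhl (r = 0.98), Nckap5, Tagln3 and Spry2. Ntrk3 was most like the unnamed locus AABR06089318.1 (r = 0.98), Ccdc148, AABR06022870.1, Dlgap1 and Kcnd2. The 12 types share libraries and differ in depth, so these values are descriptive.

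In venDG the receptors followed similar cell classes. Ntrk2 was highest in Astrocyte-like cells at 12.2 ± 2.81 (n = 9), followed by Inhibitory-like cells at 8.34 ± 1.58 (n = 4) and OPC-like cells at 4.67 ± 0.873 (n = 9). Ntrk3 was highest in Granule-like cells at 8.69 ± 3.05 (n = 6), with Excitatory-like cells at 5.50 ± 1.49 (n = 6) and Inhibitory-like cells at 4.09 ± 3.56 (n = 4). Bdnf averaged 0.546 ± 0.390 in Granule-like and 0.533 ± 0.438 in Excitatory-like cells (n = 6 each). It was not detected in 49 Inhibitory-like cells, which allows a share of up to 6.12%, or in 150 Endothelial-like cells, which allows up to 2.00%. The cells in unnamed clusters (26.0% of venDG) held 53.9% of the venDG Bdnf UMIs, 36% of Ntrk3 and 24.6% of Ntrk2, so the venDG values by class cover only part of each gene's counts.

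Bdnf-positive cells usually also carried a receptor UMI. Of the 72 dorDG cells with a Bdnf UMI, 66 (91.7%) had an Ntrk2 UMI and 59 (81.9%) an Ntrk3 UMI. In venDG the corresponding numbers were 40 (67.8%) and 43 (72.9%) of 59. These shares lie above those of all cells (53.3% and 38% in dorDG, 49.6% and 31.0% in venDG). Of the Bdnf-positive cells, 33 in dorDG were InhibNeuron and 15 ExcitNeuron, types with medians above the dorDG median of 3949 UMIs. In venDG 27 lay in the unnamed clusters, whose 535 cells, with or without Bdnf, had a median of 1894 UMIs. The unnamed cells with the most Bdnf held 18976, 7937 and 2121 UMIs. The median depth of the Bdnf-positive cells themselves is not given here. Depth was not matched in this count.

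Cells were next divided by the share of their UMIs from cytosolic ribosomal protein genes, under 2% (low-ribosomal) or 2% and above. Both receptors were higher in low-ribosomal cells in every replicate. In dorDG, Ntrk2 averaged 4.78 ± 0.966 UMIs per 10000 in low-ribosomal and 2.11 ± 0.383 in other cells (n = 9), and Ntrk3 averaged 5.19 ± 2.98 and 1.01 ± 0.419. In venDG, Ntrk2 averaged 6.22 ± 1.59 and 2.27 ± 0.758 (n = 10), and Ntrk3 averaged 4.80 ± 1.31 and 1.01 ± 0.383. Bdnf averaged 0.284 and 0.0931 in dorDG, higher in 7 of 9 replicates, and 0.244 and 0.0705 in venDG, higher in 9 of 10.

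In the edgeR fit over both classes of each replicate, the log2FC of low-ribosomal over other cells was 0.85 (SE 0.10, adjusted p = 1.02e-08) for Ntrk2 and 1.80 (SE 0.15, adjusted p = 2.47e-12) for Ntrk3. Bdnf lay under the filter of 0.5 UMIs per 10000 and was not tested. In this and every later edgeR comparison, genes with a Benjamini-Hochberg adjusted p no higher than 0.2 and a log2FC beyond 0.32 in either direction count as called. The 2 receptor genes tested were both called, as were 83.6% of all genes in this comparison, 1885 of them higher and 1811 lower in low-ribosomal cells. The scale of the difference depended on the normalisation. With library totals in place of size factors the log2FC was 1.25 for Ntrk2 and 2.20 for Ntrk3 while the median of all genes moved from 0.07 to 0.47, and the calls split into 2375 higher and 1517 lower. With RLE size factors the values were 0.69 and 1.64.

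**Figure D2:**
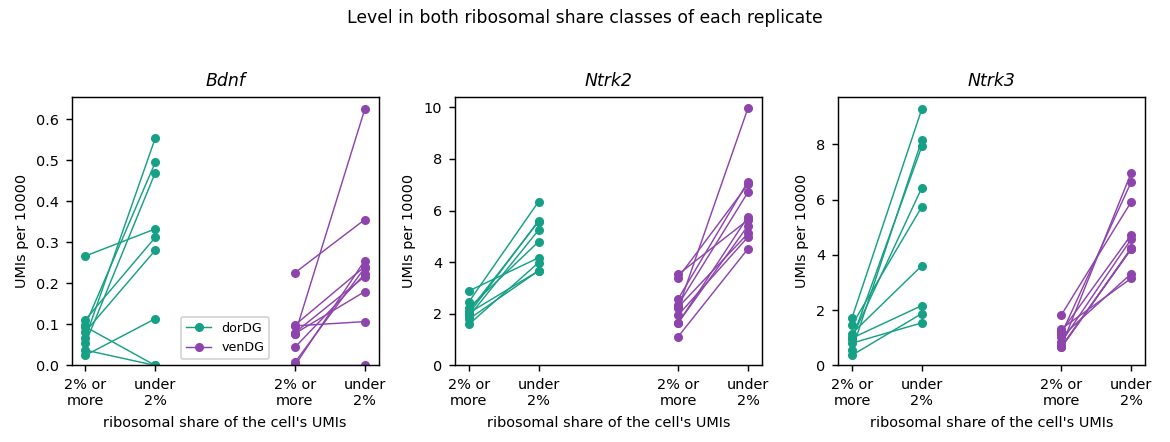
Levels (UMIs per 10000) in cells of 2% or more and under 2% ribosomal UMIs, joined for each of the 9 dorDG and 10 venDG replicates. All lines rise for Ntrk2 and Ntrk3, whereas Bdnf rises in 7 of 9 and 9 of 10.

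The class differences could be separated from the type differences in AstroSub1 and Oligodend1, the 2 annotated types with enough cells of both classes. In AstroSub1 the direction of Ntrk2 was the opposite of that over all cells. Its level in low-ribosomal cells was 7.34, 6.59, 8.84 and 9.79 in FT replicates 1, 2, 4 and 5, against 16.3, 8.29, 11.5 and 13.5 in other cells of the same replicates. In Sham replicates 4 and 5 it was 5.96 and 18.7 against 13.6 and 17.9. Low-ribosomal cells were thus lower in 5 of 6 replicates, Sham replicate 5 being the exception, and the log2FC was -1.29 (SE 0.38, edgeR adjusted p = 0.00670). In this fit 34.1% of genes were called. The log2FC was -0.59 (adjusted p = 0.195) with library totals in place of size factors, and between -1.39 and -1.14 when each replicate was left out. Ntrk3 did not pass the test in AstroSub1 (log2FC 0.13, SE 0.65, adjusted p = 0.919). In Astrocyte-like cells of venDG, which were not tested, Ntrk2 was at 10.7 ± 5.13 in low-ribosomal and 13.6 ± 3.23 in other cells (n = 6) and lower in low-ribosomal cells in 4 of 6 replicates, while Ntrk3 was at 2.69 ± 1.52 and 0.612 ± 0.589 and higher in 5.

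In Oligodend1, annotated oligodendrocytes, both receptors were higher in low-ribosomal cells in 4 of 4 replicates. Ntrk2 was at 5.02 in low-ribosomal and 0.810 in other cells of FT replicate 2, and at 1.72, 1.96 and 5.14 against 0.370, 1.04 and 0.682 in Sham replicates 1, 2 and 5. Ntrk3 was at 0.913 against 0.135 in FT replicate 2, and at 2.70, 1.57 and 4.0 against 0.370, 0 and 1.37 in the Sham replicates. The 2 classes did not overlap for Ntrk2 and did so for Ntrk3, and the share of all genes without overlap is not given here. The edgeR log2FC was 1.48 (SE 0.56, adjusted p = 0.0291) for Ntrk2 and 1.42 (SE 0.63, adjusted p = 0.0733) for Ntrk3, with 46.9% of genes called. Neither was called by DESeq2 (adjusted p = 0.203 and 0.223), and the Ntrk3 call was lost without Sham replicate 1 (log2FC 1.32, adjusted p = 0.242). The difference of the Ntrk2 effect between AstroSub1 and Oligodend1 was not tested.

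**Figure D3:**
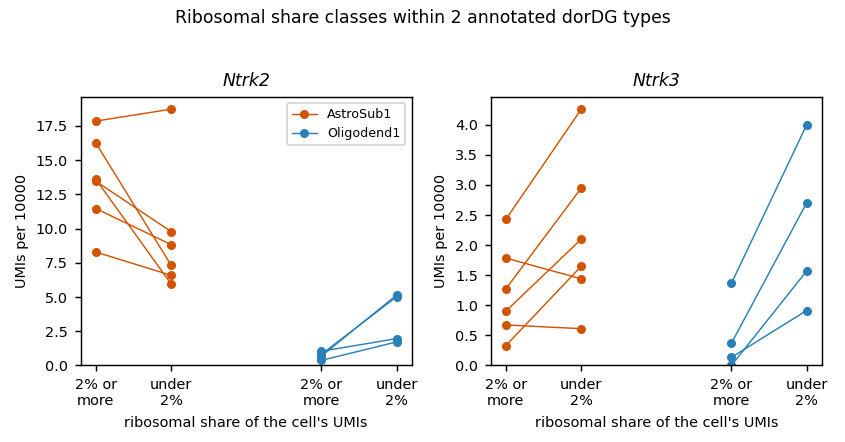
Levels of Ntrk2 and Ntrk3 (UMIs per 10000) in both ribosomal classes within AstroSub1 (6 replicates) and Oligodend1 (4 replicates), joined by replicate. Ntrk2 falls from other to low-ribosomal cells in 5 of 6 AstroSub1 replicates and rises in 4 of 4 for Oligodend1.

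The reactions of a replicate divided the cells in nearly the same way as the ribosomal share did. Low-ribosomal cells were 4.08 to 15.5% of the first and 78.3 to 95.9% of the second reaction by name, so the values below are not independent of the class comparison. In the 8 replicates with a pair of reactions, Ntrk2 averaged 2.39 ± 0.738 UMIs per 10000 in the first and 5.21 ± 1.03 in the second reaction, and was higher in the second in 8 of 8 replicates (paired exact permutation test, two-sided, p = 0.00781, adjusted over 3 genes 0.0117). Ntrk3 averaged 1.02 ± 0.458 and 4.72 ± 2.19, also higher in 8 of 8 with the same p-values, the smallest that the design allows. Bdnf averaged 0.128 ± 0.104 and 0.238 ± 0.156 and was higher in 6 of 8 (exact p = 0.117).

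Whether fluoxetine changed the members was tested first over all cells of a replicate, where fewer cells of a type and less RNA per cell cannot be told apart. In dorDG, Bdnf was at 0.175, 0.282, 0.0336 and 0.0857 UMIs per 10000 in FT replicates 1, 2, 4 and 5, and at 0.172, 0.0518, 0.408, 0.164 and 0.185 in Sham replicates 1 to 5. The groups overlapped over most of their range. The difference in means, 0.144 ± 0.109 against 0.196 ± 0.130, was within the spread (exact permutation test, two-sided, p = 0.587). These values rest on 2 to 25 Bdnf UMIs per replicate, and Bdnf lay under the edgeR filter.

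In venDG, Bdnf was at 0.105, 0.268, 0.0328, 0.123 and 0.183 in FT replicates 1 to 5. In Sham it was at 0.0999, 0.103, 0, 0.101 and 0.0358. Sham replicate 3 held no Bdnf among 220162 UMIs, which allows up to 0.136 per 10000, and the highest FT replicate owed 16 of its 37 UMIs to a single cell. The means were 0.142 ± 0.0883 and 0.0680 ± 0.0475 (exact permutation p = 0.103), and 4 of 5 FT replicates lay above the highest Sham value. Without FT replicate 3, the lowest of its group, the venDG difference was 0.101 (exact permutation p = 0.0159). That p is the smallest that 4 against 5 replicates allow. The removal fixed it, since the FT replicates left all lay above the highest Sham value, replicate 1 at 0.105 against 0.103. Over the fits that each left out a replicate, the venDG difference was between 0.0427 and 0.101. With all replicates a change of Bdnf was not detectable at this depth in either region. Without the filter, edgeR gave a log2FC of -0.15 (adjusted p = 0.918) in dorDG and 0.84 (adjusted p = 0.859) in venDG.

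Ntrk2 over all dorDG cells was at 3.13, 2.86, 1.98 and 2.18 in FT and at 3.38, 2.32, 4.53, 2.78 and 3.68 in Sham. FT replicates 4 and 5 lay below all Sham replicates, and FT replicates 1 and 2 lay among them. The means were 2.54 ± 0.545 and 3.34 ± 0.850 (exact permutation p = 0.143), and the edgeR log2FC was -0.30 (SE 0.24, adjusted p = 0.387). In venDG the order of the means was the other way. FT was at 3.78, 4.21, 2.83, 2.46 and 4.11 and Sham at 3.04, 3.20, 2.86, 2.24 and 3.30, so that 3 FT replicates exceeded all Sham replicates. The means were 3.48 ± 0.788 and 2.93 ± 0.420 (exact permutation p = 0.198, edgeR log2FC 0.24, SE 0.21, adjusted p = 0.808). Among venDG cells with 2% or more ribosomal UMIs, Ntrk2 was at 2.76 ± 0.681 in FT against 1.77 ± 0.469 in Sham (exact permutation p = 0.0317, not adjusted for the other cell sets tried), while the edgeR fit of these cells made no call (log2FC 0.59, adjusted p = 0.900).

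Ntrk3 showed the largest difference of the 3 genes in dorDG. It was at 2.04, 1.74, 1.11 and 0.874 UMIs per 10000 in FT replicates 1, 2, 4 and 5. In Sham replicates 1 to 5 it was at 3.99, 0.829, 5.83, 2.60 and 4.11. Sham replicate 2 was the lowest of all 9, and the other 4 Sham replicates lay above every FT replicate. The means were 1.44 ± 0.542 and 3.47 ± 1.87. Ntrk3 was called lower in FT by edgeR (log2FC -1.14, SE 0.41, adjusted p = 0.168), as 1 of 2 members tested, in a comparison where 28.6% of genes were called and 16.1% were called lower. The exact permutation test did not pass (p = 0.0952, adjusted over 6 tests 0.286).

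The cell makeup of the dorDG replicates differed too. Low-ribosomal cells made up 20.3%, 42.1%, 14.5% and 15.2% of the FT replicates and 55.7%, 51.4%, 72.0%, 31.9% and 44.8% of the Sham replicates (exact permutation p = 0.0317). The replicate median share of mitochondrial UMIs was 6.62 ± 0.430% in FT and 4.28 ± 1.24% in Sham. InhibNeuron cells, the type with the highest Ntrk3, were 9.79%, 2.54%, 3.05% and 4.04% of the FT cells and 20.4%, 0%, 31.0%, 11.9% and 22.4% of the Sham cells (exact permutation p = 0.127). Sham replicate 2, with the lowest Ntrk3, had no InhibNeuron cell and 51.4% low-ribosomal cells. FT replicate 2 had the largest low-ribosomal share of its group and an Ntrk3 level below that of FT replicate 1. The part of either share in the Ntrk3 values was not tested beyond the fits that follow.

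Among cells of 2% or more ribosomal UMIs, Ntrk3 was at 0.992 ± 0.142 in FT and 1.02 ± 0.580 in Sham (edgeR log2FC -0.024). Among low-ribosomal cells it was at 3.44 ± 2.18 and 6.60 ± 2.93 (log2FC -0.66, adjusted p = 0.671). With the ribosomal class as a term the edgeR log2FC was -0.33 (adjusted p = 0.913). That fit took up to 2 sums per replicate as independent, without a replicate block, so its p-value does not measure the spread between pools alone. In cells other than InhibNeuron the log2FC was -1.07 (adjusted p = 0.257). The call was also lost without any 1 of FT replicates 4 and 5 and Sham replicates 1, 3 and 5 (adjusted p = 0.385, 0.334, 0.281, 0.253 and 0.219). Without Sham replicate 2, the only Sham replicate not above every FT replicate, the edgeR adjusted p was 0.0358. The exact permutation test then gave 0.0286, the smallest p that 4 against 4 replicates allow, and the removal fixed it. The edgeR fit without that replicate called 2022 genes, against 1221 with all replicates.

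In venDG, Ntrk3 did not differ beyond the spread. FT was at 2.36, 2.38, 1.06, 1.48 and 2.63 and Sham at 1.89, 1.93, 2.5, 2.0 and 1.36. The means were 1.98 ± 0.676 and 1.94 ± 0.404 (exact permutation p = 0.905, edgeR log2FC 0.021, SE 0.25, adjusted p = 0.993). Over all genes of this comparison edgeR called 0% (0 of 4079, with 236 at an unadjusted p under 0.05), limma called 0 and DESeq2 called 22. The low-ribosomal share was 30.3 ± 13.8% over FT and 40.1 ± 16.7% over Sham replicates (exact permutation p = 0.325).

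**Figure D4:**
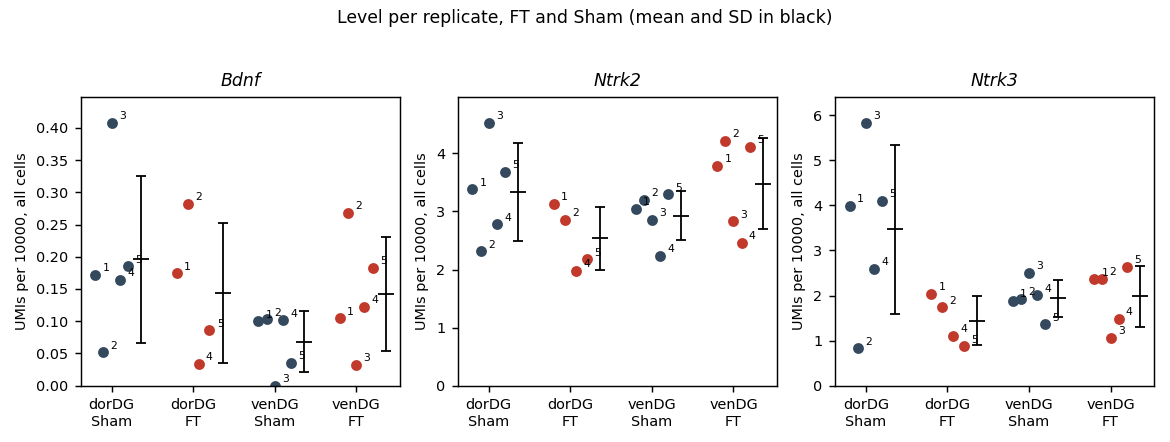
Level of each gene over all cells of a replicate (UMIs per 10000, vertical axes on separate scales), with replicate numbers beside the points and the mean and SD in black. For Ntrk3 the dorDG Sham replicates spread from 0.829 to 5.83 and the dorDG FT replicates from 0.874 to 2.04.

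The difference of the FT effect between regions was tested as an interaction. Without pairing, neither receptor was called (Ntrk2 -0.58, SE 0.30, adjusted p = 0.553, and Ntrk3 -1.21, SE 0.50, adjusted p = 0.518), and edgeR called 0% of genes (0 of 4161, with 394 at an unadjusted p under 0.05, and 8 by DESeq2). With the replicate number as a block across regions, which leaves out venDG FT replicate 3 because it has no dorDG counterpart, both were called. The blocked values were -0.60 (SE 0.23, adjusted p = 0.198) for Ntrk2 and -1.21 (SE 0.44, adjusted p = 0.196) for Ntrk3, with 9.75% of genes called. Leaving out dorDG Sham replicate 2 without the block also gave a call for Ntrk3 (-1.46, adjusted p = 0.133). Within cells of 2% or more ribosomal UMIs the unblocked interaction was -0.53 for Ntrk2 and -0.08 for Ntrk3 (adjusted p = 0.9997 for each), and within low-ribosomal cells it was -0.17 and -0.97 (adjusted p = 0.993 and 0.793).

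Levels were then compared between regions within each treatment. In Sham animals the log2FC of dorDG over venDG was 0.09 (SE 0.23, adjusted p = 0.898) for Ntrk2 and 0.72 (SE 0.36, adjusted p = 0.639) for Ntrk3. edgeR called 0% of genes (0 of 4313, with 361 at an unadjusted p under 0.05, and 155 by DESeq2). Without dorDG Sham replicate 2, Ntrk3 was called higher in dorDG (0.98, adjusted p = 0.118). In FT animals it was -0.45 (SE 0.21, adjusted p = 0.681) for Ntrk2 and -0.45 (SE 0.30, adjusted p = 0.907) for Ntrk3, with 0.275% of genes called. Blocked by replicate number over 4 pairs, both receptors were called lower in dorDG of FT animals, at -0.51 (SE 0.14, adjusted p = 0.138) for Ntrk2 and -0.63 (SE 0.20, adjusted p = 0.199) for Ntrk3, where 6.66% of genes were called. The blocked Sham comparison called neither receptor and 2.43% of genes. The comparisons of region and treatment share samples and are not independent of one another.

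The last comparison asked whether the members changed within cell types. Ntrk3 was lower in FT in 8 of the 10 dorDG types that could be tested, with log2FC from -2.0 to 0.52. It was called by edgeR in only 1 of them, and its unadjusted p was at most 0.05 in 5. DESeq2 also placed 8 of 10 lower but called 0, with such a p in 3. With the replicate block 7 of 8 types were lower, 1 was called and 3 had such a p. All types came from the same dorDG replicates, so these counts are not independent repeats. The share of all genes with such a pattern over the types is not given here. Of all genes, 0.0232% were called in AstroSub1, 0.029% in Oligodend2, 0.0581% in Microglia2, and 0% in the 6 further types without a member called. The type with the call was Oligodend1. Its Ntrk3 level was 0.399, 0.313, 0.409 and 0.432 UMIs per 10000 in FT replicates 1, 2, 4 and 5 and 1.15, 0.735, 1.18, 0.724 and 1.80 in Sham replicates 1 to 5. The groups did not overlap, and the share of all Oligodend1 genes without overlap is not given here. The log2FC was -1.52 (SE 0.46, edgeR adjusted p = 0.157), where 6.15% of genes were called.

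The Oligodend1 value rested on 11 UMIs in 64 FT cells and 44 UMIs in 107 Sham cells, and it was called in 3 of the 9 fits that each left out a replicate (adjusted p = 0.108 to 0.334, log2FC -1.65 to -1.25). It was lost without any 1 of FT replicates 1, 4 and 5 and Sham replicates 2, 3 and 5. DESeq2 gave a log2FC of -1.55 and no adjusted p. Low-ribosomal cells made up 28.1% of Oligodend1 cells in FT and 64.5% in Sham. Within cells of 2% or more ribosomal UMIs the Ntrk3 level pooled over replicates was 0.307 in FT (8 UMIs) and 0.710 in Sham (18 UMIs). Of these 18 UMIs, 12 lay in Sham replicate 5. Within low-ribosomal cells the pooled level was 1.06 (3 UMIs) and 2.52 (26 UMIs).

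The other 4 types with an unadjusted p of at most 0.05 for Ntrk3 did not pass the test. Endothelial cells had the lowest log2FC, -2.0 (SE 0.70, adjusted p = 0.823), from 6 Ntrk3 UMIs in FT and 33 in Sham, and Microglia1 had -1.57 (SE 0.70, adjusted p = 0.999). In AstroSub1, Ntrk3 was at 1.26, 0.827, 1.78 and 0.651 in FT replicates 1, 2, 4 and 5 and at 2.82, 2.71, 3.09 and 1.70 in Sham replicates 1, 2, 4 and 5, with only FT replicate 4 reaching into the Sham range (log2FC -1.16, SE 0.50, adjusted p = 0.787). Low-ribosomal cells made up 51.0% of AstroSub1 cells in FT and 72.1% in Sham. OPC had -0.95 (SE 0.44, adjusted p = 0.936). Mossy and Oligodend2 had values above 0, at 0.22 and 0.52.

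In InhibNeuron, where Ntrk3 was highest, its level was 7.32, 8.13, 4.50 and 4.22 in FT replicates 1, 2, 4 and 5 (14, 5, 4 and 4 cells) and 9.67, 8.94, 5.38 and 10.2 in Sham replicates 1, 3, 4 and 5. The ranges overlapped, and the log2FC was -0.36 (SE 0.31, adjusted p = 0.546). Ntrk2, which the study names among the genes of this type and which is therefore not independent evidence, was at 3.25, 3.71, 2.5 and 3.28 in FT and at 4.63, 5.36, 3.29 and 5.35 in Sham (log2FC -0.42, SE 0.29, adjusted p = 0.444). Only FT replicate 2 lay above the lowest Sham replicate. Low-ribosomal cells made up 37.0% of InhibNeuron cells in FT and 89.2% in Sham. Bdnf was at 0.570, 1.24, 0.250 and 0.937 in FT and 0.311, 0.526, 0.449 and 0.501 in Sham, so that 3 of 4 FT replicates exceeded all Sham replicates (log2FC 0.87, SE 0.47, adjusted p = 0.349). It rested on 19 UMIs in FT and 32 in Sham. In this type edgeR called 0% of genes (0 of 4657, and 766 had an unadjusted p under 0.05) against 308 by DESeq2.

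Ntrk2 was lower in FT in 6 of 10 dorDG types and called in 0, with log2FC from -1.20 in Granule to 0.12 in Microglia2 and an unadjusted p of at most 0.05 in 0 of them. DESeq2 placed 9 of 10 lower and called 0, so the direction was not settled in the types with values near 0. In AstroSub1, the type with the highest level, Ntrk2 was at 11.0 ± 2.54 in FT and 11.1 ± 5.21 in Sham (n = 4 each, log2FC 0.03, SE 0.40, adjusted p = 0.988). BergGlia and ExcitNeuron had too few replicates for a test.

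**Figure D5:**
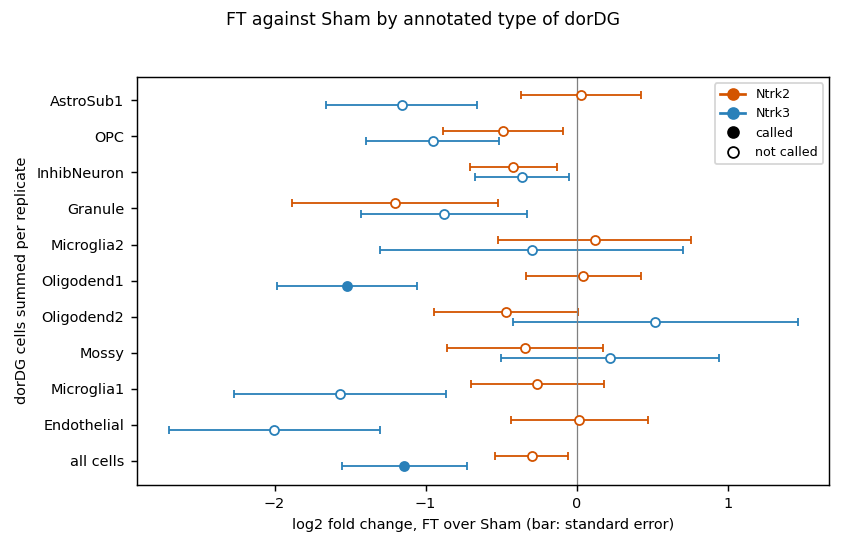
The edgeR log2FC of FT over Sham with its standard error for Ntrk2 and Ntrk3, over all dorDG cells and in each annotated type with enough replicates. Filled points are called. These are Ntrk3 over all cells (-1.14) and in Oligodend1 (-1.52).

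In venDG classes none of the members was called. Ntrk3 was lower in FT in 4 of 6 classes tested, with an unadjusted p of at most 0.05 in 1, and Ntrk2 in 3 of 7 with 0 such p-values. DESeq2 called 0 for either gene. Oligodendrocyte-like cells had the lowest Ntrk3 value at -1.35 (SE 0.52, adjusted p = 0.934). In Astrocyte-like cells, where 3.51% of genes were called, the log2FC was 0.67 (SE 0.41, adjusted p = 0.380) for Ntrk2 and -0.86 (SE 0.54, adjusted p = 0.386) for Ntrk3. Both passed without FT replicate 1 (0.79 and -1.09, adjusted p = 0.133 and 0.128), and without Sham replicate 1 the Ntrk3 value was 0.16. In Mural-like cells 0.104% of genes were called, and in the other classes 0%. Bdnf passed the filter in Granule-like cells alone (log2FC -0.07, SE 1.05).

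Genes of the neurotrophin pathway other than the members were read from a list of 63, of which 61 were in the tables. Over all dorDG cells 24 passed the filter and 5 were called in FT against Sham (20.8%, against 28.6% of all genes). Camk4, a calcium and calmodulin-dependent kinase, was lower at -1.49 (SE 0.37, adjusted p = 0.155), as were the kinases Prkca (-0.91) and Map2k5 (-0.57). Dusp6, a phosphatase that is induced by MAP kinase signalling and opposes it, was higher at 0.89 (SE 0.22, adjusted p = 0.155). The median log2FC was -0.18 over the listed genes and -0.04 over all genes tested. In venDG 0 of 23 were called by edgeR and by DESeq2, with 1 at an unadjusted p under 0.05. Within dorDG types edgeR called 1, Sorcs1, a sortilin-family receptor, at -0.99 (SE 0.33, adjusted p = 0.158) in Oligodend1, as 1 of 21 listed genes tested there beside 6.15% of all genes. DESeq2 called Sorcs1 in Oligodend1 and, of 22 tested in InhibNeuron, Prkca (-1.74, SE 0.57, adjusted p = 0.0976), where edgeR called 0 and gave 3 an unadjusted p under 0.05.

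Camk4 (1.53), Prkca (1.24) and Map2k5 (0.71) were each called higher in low-ribosomal cells, in a class comparison that called most genes. The value of Dusp6 in it is not given here. In that class comparison 26 of the listed genes passed the filter, 12 were called higher and 5 lower (65.4% in all, against 83.6% of all genes). Egr1, an immediate early gene, was the lowest at -4.31 (SE 0.25, adjusted p = 7.08e-16). The part of the cell makeup in the Ntrk3 and pathway differences of dorDG was not tested beyond the class and type values given.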

How the data were processed

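The authors deposited unnormalised UMI counts for each gene in each cell, made from Chromium 3′ v2 libraries with Cell Ranger (rn5, per the submitters' processing notes) after filtering cells. The dorDG annotation is other per-cell information from the authors. Labels placed 108 libraries in 19 replicates in 4 groups. A second suffix marked 170 venDG columns, 167 repeating a barcode, and these were left out. 9 barcodes occurred in more than 1 reaction. No replicate repeated another of its group (chi-square over degrees of freedom from 2.97 to 17.1 in 36 pairs).

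Counts were summed per replicate and tested with the edgeR 4.0.16 quasi-likelihood F-test after TMM, on genes with at least 0.5 UMIs per 10000, with DESeq2 1.42.0 and limma 3.58.1 (log2 of UMIs per 10000 + 0.01) as alternatives, besides RLE size factors, no filter, each ribosomal class alone and leaving out each replicate. Types needed at least 5 cells in 3 replicates per group (InhibNeuron 1 cell). Ventral cells were clustered with scanpy 1.11.5 (resolution 2) without the members. No doublet caller was run. Same-numbered dorDG and venDG replicates deviated together (correlations 0.210 to 0.564 in Sham, 0.113 to 0.395 in FT), and regions were also compared with replicate number as a block. Replicates of different number were not correlated, so these values do not show that a shared number made replicates more alike. FT and Sham replicates of the same number deviated together in some pairs and not in others. Their correlations were -0.249 to 0.393 in dorDG and -0.201 to 0.281 in venDG. Whether they were paired is not known, and that block was run as an alternative only.

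The members, the pathway list and the rule for named genes (pathway genes called, up to 5 by size, and the 5 most alike in pattern) were chosen with earlier results of these data known. Some genes that the rule names are not reported here. Fits in cells other than InhibNeuron, with library totals and, for class differences within types, leaving out replicates were added after seeing the data. All 3 symbols occur in a GRCr8 annotation. No coordinates are given, since its build differs from rn5.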

Additional observations from a re-analysis of the deposited data

Results flagged for a closer look

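Among 47 sets of replicate values of 4 to 10 samples, 9 had an extreme sample by Dixon's criterion, where chance gives about 1 in 20 for continuous values. In BergGlia, Endothelial, Mossy and Oligodend1 the Bdnf UMIs lay in 1 replicate alone, which meets the criterion by construction, so that rate does not apply there. For Bdnf in dorDG the highest replicate stood apart in AstroSub1 (0.678 UMIs per 10000), BergGlia (1.94), Endothelial (0.137), Granule (0.959), InhibNeuron (1.24), Microglia1 (0.398), Mossy (0.147) and Oligodend1 (0.0822). Except in InhibNeuron, these types held 1 to 8 Bdnf UMIs in all. For Ntrk2 the highest Oligodend1 replicate, at 3.25, stood apart.

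The FT effect was called different between regions in the edgeR fit with the replicate block, at -0.60 for Ntrk2 and -1.21 for Ntrk3. Both adjusted p-values lay just under the threshold of 0.2, and 9.75% of all genes were called in that fit. Without the block neither passed. The part of the cell makeup in this was not tested beyond the values by ribosomal class.

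The 170 venDG columns left out, all from 1 FT reaction and with a median of 1257.5 UMIs, held Bdnf at 0.272, Ntrk2 at 4.28 and Ntrk3 at 5.20 UMIs per 10000. Including them left both receptors uncalled in venDG (log2FC 0.24 and 0.09).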

How the results depend on the processing

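The level of Bdnf lay under the filter in every all-cell fit except those run without a filter. The dorDG call of Ntrk3 (log2FC -1.14) held with RLE size factors, DESeq2 and limma and was lost without a filter (-1.06), with the replicate block (-0.82), in cells of 2% or more (-0.024) or under 2% ribosomal UMIs (-0.66), with the class as a term (-0.33) and in cells other than InhibNeuron (-1.07). The number of genes called there (1221) became 1849 with DESeq2, 207 without a filter, 23 in low-ribosomal cells and 0 with the block, in cells of 2% or more ribosomal UMIs, with the class as a term and in cells other than InhibNeuron, and 0 to 2022 when each replicate was left out (0 without FT replicates 4 or 5 or Sham replicates 3 or 5, 1 without Sham replicate 1, 479 without FT replicate 1, 2022 without Sham replicate 2). In venDG it rose from 0 to 22 with DESeq2 and 3 without a filter. The causes were not tested.

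The sign of Ntrk2 over dorDG cells turned in cells of 2% or more ribosomal UMIs (0.065, and 0.125 UMIs per 10000) and with the class as a term (0.012), as did Bdnf in those cells (0.0563 UMIs per 10000). Ntrk3 in venDG turned with limma (-0.020) and the block (-0.020). Between regions in Sham, Ntrk2 turned in low-ribosomal cells (-0.27) and Ntrk3 in other cells (-0.025). Ntrk2 in venDG cells of 2% or more ribosomal UMIs passed the exact permutation test (0.988). In types, Ntrk2 turned in AstroSub1 (-0.31 and -0.18 in the classes), Endothelial (-0.040, DESeq2), InhibNeuron (0.88, and Ntrk3 0.63, in cells of 2% or more) and Microglia2 (-0.11 with DESeq2, -0.23 with the block). None of these passed in edgeR.

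The replicate block added calls for the interaction (Ntrk2 -0.60, Ntrk3 -1.21) and for the regions of FT animals (-0.51, -0.63), and changed no other member's call but that of Ntrk3 in dorDG. That blocked fit (-0.82, adjusted p = 0.284) also left out Sham replicate 3, without which the call was lost in any case (-0.92, adjusted p = 0.253), so the 2 changes cannot be told apart. No source used here pairs FT and Sham single-cell replicates by number, and not every pair deviated together (correlations -0.249 to 0.393 in dorDG and -0.201 to 0.281 in venDG).

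Leaving out 1 replicate at a time gave -1.37 to -0.92 for Ntrk3 in dorDG, -0.090 to 0.19 in venDG and -1.46 to -0.96 for its interaction. For dorDG over venDG in Sham it gave -0.016 to 0.19 for Ntrk2 and 0.47 to 0.98 for Ntrk3. Differences in UMIs per 10000 were -0.0982 to 0.000803 for Bdnf and -2.69 to -1.44 for Ntrk3 in dorDG, and 0.0427 to 0.101 for Bdnf and -0.117 to 0.277 for Ntrk3 in venDG. Within types, Ntrk2 ran from -0.22 to 0.37 in AstroSub1, -0.18 to 0.43 in Endothelial, -0.74 to 0.094 in Microglia1, -0.43 to 0.37 in Microglia2, -0.60 to 0.033 in Mossy and -0.17 to 0.30 in Oligodend1, and Ntrk3 from -0.16 to 0.52 in Mossy, -0.20 to 0.94 in Oligodend2, -1.09 to 0.16 in Astrocyte-like and -0.040 to 0.39 in OPC-like cells. DESeq2 gave no adjusted p in Oligodend1. Of the alternatives run, 571 kept the direction and the side of the threshold, or the value within the spread, 49 turned the sign, 11 gained a call, 20 lost one and 17 moved a count or level.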
